A study of Populus trichocarpa with 12 samples.

Results

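The regions described here had less H3K9ac after 5 days without water than in watered plants, and no region listed after 7 days shared a base with them. They number 1213 of the 10605 regions in the authors' deposited day 5 table, or 11.4%. H3K9ac, histone H3 acetylated at lysine 9, was measured by chromatin immunoprecipitation and sequencing in stem differentiating xylem of Populus trichocarpa plants 3 months old. The day 5 group had gone 5 days without water (soil water content 33%, xylem water content 75.3%, labelled mild drought). The day 0 group was fully irrigated (soil water 74%, xylem water 80.6%). Each group had 2 immunoprecipitated and 2 input libraries. The day 7 group (soil water 29%, xylem water 74.3%, labelled severe drought) enters only through the positions and deposited changes of its 12101 listed regions. The labels give no genotype, do not tie the replicates to separate plants, and name no batch. Day 0 is the only watered group, so drought cannot be told apart from time or handling.

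Acetylation of H3 lysine 9 is placed by histone acetyltransferases and taken off by histone deacetylases. In plants it gathers around the 5′ ends of transcribed genes, and a lower level there usually accompanies lower transcription. Differentiating xylem is the wood-forming tissue of the stem, where cells expand, lay down secondary walls and die to form vessels and fibres. Xylem samples mix cells at these stages, and fewer cells carrying the mark cannot be told apart from less of the mark per cell. Genes were not assigned to the regions, because the build of the tables is not named in full and the available gene annotation is that of P.trichocarpa_v4.1. Positions count from 1 and follow the deposited tables.

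The regions were chosen by their normalised reads in the day 5 and day 0 libraries, by the deposited enrichments and by position, so the direction and the size of the loss are a description and carry no test. A region entered if it shared no base with a day 7 region and if both day 5 libraries lay below both day 0 libraries. Its mean normalised reads had to be lower at day 5 by about 1.2-fold or more, its length under 3000 bp, and its enrichment over input at least 0.5. Normalised reads are the reads of a library in a region divided by a constant for that library. Of the listed regions, 3934 shared no base with a day 7 region, and 1740 of these had both day 5 libraries below both day 0 libraries. The ratio left 1217, the length limit 1215 and the enrichment 1213. Absence from the day 7 table means that no window there passed its threshold. The reads of the day 7 libraries in these regions were not analysed here, so whether H3K9ac had returned to the day 0 level by day 7 is not shown.

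The 1213 regions held 426203 and 277576 reads in the day 5 libraries and 499538 and 494480 in the day 0 libraries, with medians per region of 280 and 183 reads at day 5 and 319 and 327 at day 0. Day 5 replicate 2 was the shallowest library and its values are the least precise.

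The day 5 over day 0 ratio had a median of 0.735, an interquartile range of 0.689 to 0.791 and a lowest value of 0.504. In words of fold, the median region held 1.36-fold fewer reads at day 5, and the lowest 1.99-fold fewer. Ratios of 0.6 or less were rare, with 5 regions up to 0.55 and 16 above 0.55 up to 0.6. A larger number, 241 regions, had a ratio above 0.8. Normalised reads in day 5 replicate 1 had a median of 238 (105 to 13743) and in day 5 replicate 2 a median of 229 (106 to 12997). In day 0 replicate 1 the median was 313 (220 to 21148), and in day 0 replicate 2 it was 316 (222 to 16243). The lowest day 0 values stood just above a floor that can be computed from the headers. The trimmed mean of a 1000 bp bin plus 2 deviations, on the normalised scale, came to 219.5 for day 0 replicate 1 and 222 for day 0 replicate 2. Among regions gained at day 5 only, it was the day 5 libraries that kept to such a floor, with lowest values of 225 and 224 against 224 and 223 computed.

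**Figure D1:**
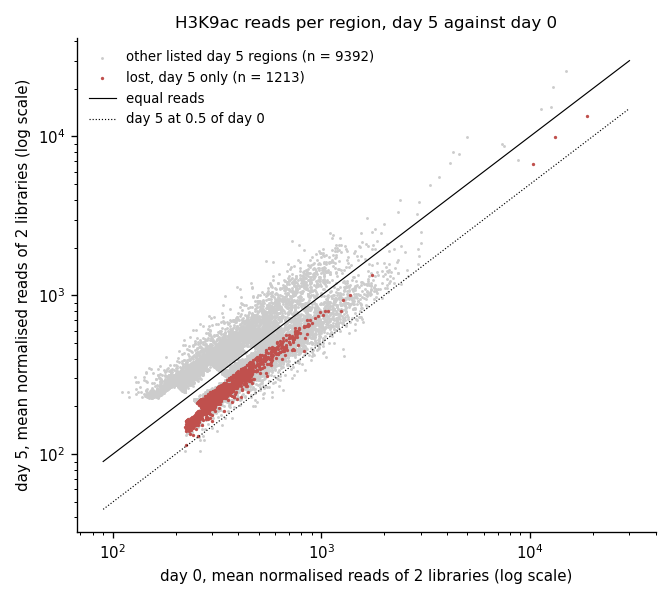
Mean normalised H3K9ac reads at day 5 (vertical, log scale) against day 0 (horizontal, log scale) for each listed day 5 region, with 2 libraries per mean. The 1213 lost regions of day 5 only (red) lie between the line of equal reads and the dotted line of 0.5, from a day 0 mean of 223 upward, among the other listed regions (grey).

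The lowest ratio was on chromosome 2 from 24060801 to 24062000. This region of 1200 bp held 142 and 118 normalised reads at day 5, against 266 and 249 at day 0. Its log2 change was -0.99 (SE 0.12, limma). On chromosome 1 from 30745701 to 30746700, the day 5 libraries held 105 and 124 normalised reads and the day 0 libraries 221 and 228, a log2 change of -0.97 (SE 0.12, limma). The distance between the days was several times the distance between replicates in both regions. The strongest loss in a region of many reads was on chromosome 4 from 21526701 to 21529100, a region of 2400 bp with 432 and 461 normalised reads at day 5 and 896 and 753 at day 0. Its log2 change was -0.88 (SE 0.0958, limma). The other region of chromosome 4 in this group, from 15967401 to 15968400, averaged 133 ± 24.6 normalised reads at day 5 and 243 ± 27.7 at day 0 (SD, n = 2 each). Here the spread of both groups was wide for a region of so few reads. In the order given, the deposited enrichments over input of these regions at day 5 were 0.88, 0.79, 1.1 and 0.86. At day 0 they were 1.48, 2.73, 2.17 and 2.72. A value under 1 means less immunoprecipitated than input signal.

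In the remaining 4 of the 8 lowest, the day 0 libraries differed by more normalised reads than the day 5 libraries did. As a ratio, the day 5 libraries were the further apart on chromosome 14. Chromosome 14 from 4494101 to 4495200 held 179 and 143 normalised reads at day 5 and 325 and 272 at day 0. Chromosome 1 from 44696701 to 44698100 held 200 and 176 at day 5 and 284 and 398 at day 0. Chromosome 1 from 48882001 to 48883800 held 233 and 263 at day 5 and 393 and 502 at day 0. Replicate 2 was the higher day 0 library in both regions of chromosome 1, as it was on chromosome 15. There the region from 13635001 to 13636700 held 229 and 229 normalised reads at day 5 and 344 and 479 at day 0. Its log2 change was -0.84 with both day 0 libraries, -1.06 without day 0 replicate 1 and -0.58 without day 0 replicate 2. In the order given, the deposited enrichments of these 4 regions at day 5 were 0.61, 0.9, 1.99 and 1.8. At day 0 they were 1.51, 2.31, 4.58 and 5.81. The background on chromosome 14 differed, as described below.

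**Figure D2:**
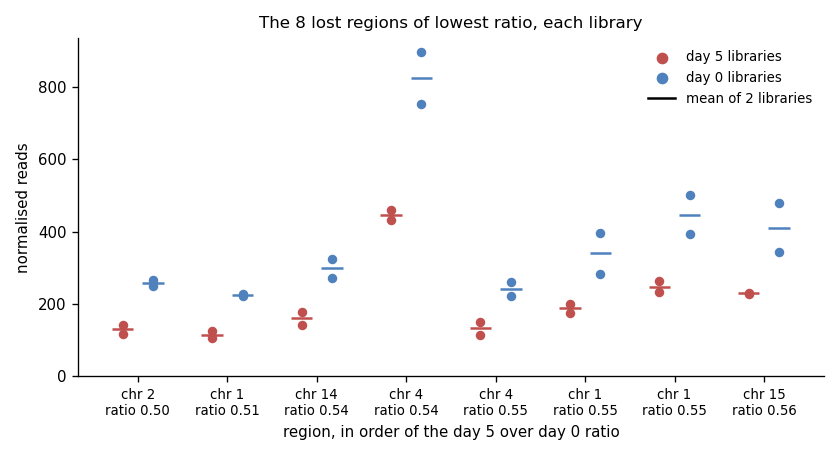
Normalised H3K9ac reads (vertical) of each library in the 8 regions of lowest ratio, in order of the ratio, with day 5 libraries in red and day 0 libraries in blue and a bar at the mean of 2 libraries. The groups do not overlap in any of the 8, as the rule required, and in the 3 regions on the right the day 0 libraries are further apart than the day 5 libraries.

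Some regions owe their place to a narrow margin. Of the regions that missed by a single criterion, 522 met every other criterion and had a day 5 over day 0 ratio above the limit. Chromosome 14 from 2305601 to 2306800 (ratio 0.832999) and chromosome 8 from 8076601 to 8077700 (0.832966) were just inside. Chromosome 1 from 35785301 to 35786300 (0.833057) and chromosome 12 from 10459001 to 10460200 (0.833187) were just outside. Only 2 regions failed by length alone, of 3000 and 3200 bp, while the longest inside measured 2900 and 2800 bp. Another 2 failed by enrichment alone, at 0.4996 and 0.470, and the lowest inside were 0.570 and 0.574. A single region, on chromosome 5 from 10751301 to 10753500, failed because a day 5 library exceeded a day 0 library. The smallest margin inside was 10.97 normalised reads, on chromosome 13 from 6161801 to 6163000. By far the largest group that missed by a single criterion were 2630 regions that shared at least 1 base with a day 7 region, the smallest overlap being 100 bp.

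The authors' deposited table gave an adjusted p under 0.05 to 1138 of the 1213 regions (93.8%). Among all listed regions, 48.2% were called in this way and were lower at day 5, and 91.5% were called in either direction. The rule read this contrast, so nothing is read from these shares. The 75 regions without such a call had a median ratio of 0.815, against 0.728 in the called ones. Their ratios ran from 0.690 up to the limit. All were longer than a single window, at 1100 to 2000 bp. A single window is listed only past the window p cutoff, and all 496 single windows had the call. Nothing is therefore read from this length. limma, fitted to all 10605 listed regions with Benjamini-Hochberg adjustment, called 1209 of the 1213 lower at day 5, beside 44.3% of all listed regions called lower and 83.8% called in either direction. With a day 0 library left out, that count was 805 without replicate 1 and 794 without replicate 2, beside 29.9% and 30.2% of all listed regions called lower in the same fits. On reads without the library constants limma called 4 of all 10605 listed regions in either direction and 0 of the 1213, of which 80 had an unadjusted p under 0.05. On that scale 1146 of the 1213 (94.5%) had both day 5 libraries below both day 0 libraries, beside 39.6% of all listed regions. Both day 5 libraries were below both day 0 libraries in 51.1% of listed regions and, by the rule, in all 1213.

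The day 5-only lost regions were shorter and held fewer reads than lost regions of the same rule that shared a base with a day 7 region. No test was made between these sets, since longer regions also have more bases to share. Their median length was 1100 bp, against 1700 bp in the 2630 overlapping lost regions. A single window of 1000 bp made up 496 of them (40.9%), against 386 of the overlapping ones (14.7%). Shortness was not particular to the lost regions. Regions gained at day 5 only also had a median length of 1100 bp, with 37.0% single windows. Their median reads in the higher group, day 5, were 332. All listed regions had a median of 1300 bp, with 30.5% single windows. At day 0 the median region held 314 normalised reads in the day 5-only set and 506 in the overlapping set. Per kb the distance was smaller, at 270 and 302 normalised reads. The ratio was nearly alike, with a median of 0.735 against 0.711, but the overlapping set reached down to 0.327.

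Enrichment over input was low. Taken as the geometric mean of the deposited day 5 and day 0 enrichments, it had a median of 1.43 in the day 5-only lost regions (interquartile range 1.16 to 1.80) and of 1.64 in the overlapping lost regions. Regions gained at day 5 only had a median of 2.21, and all listed regions 1.89. An enrichment of at least 2 was found in 204 of the 1213 regions (16.8%), against 27.4% of the overlapping lost regions, 44.1% of all listed regions and 893 of 1453 regions gained at day 5 only (61.5%). An enrichment under 1, with less immunoprecipitated than input signal, was found in 148 regions (12.2%), against 4.52% of the overlapping lost regions, 4.99% of all listed regions and 1.45% of the gained ones. In the authors' deposited table the median enrichment of these lost regions was 1.13 at day 5 and 1.77 at day 0, and 397 of them (32.7%) were under 1 at day 5, against 70 (5.77%) at day 0. These deposited values enter the rule and contain the loss itself.

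**Figure D3:**
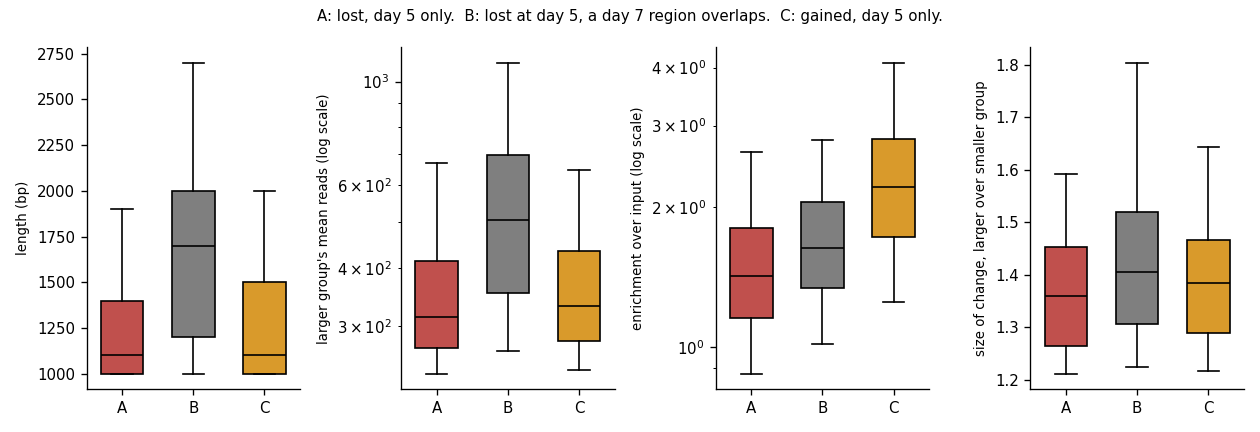
Length, mean normalised reads of the larger group (log scale), enrichment over input (log scale) and size of change (larger over smaller group) in lost regions of day 5 only (A, n = 1213), lost regions that a day 7 region overlaps (B, n = 2630) and gained regions of day 5 only (C, n = 1453). Boxes span the quartiles with the median, and whiskers the 5th to 95th percentile. A is shorter and holds fewer reads than B. Its median length equals that of C, and its enrichment is lower than that of C.

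Among the day 5-only lost regions, the enrichment contains the same reads as the ratio, and the rule bounds both. Nothing is therefore read from the ratios by class of enrichment. The median ratio was 0.703 in the 148 regions with an enrichment under 1, 0.741 in 527 regions from 1 to 1.5, and 0.738 in 334 regions from 1.5 to 2. It was 0.740 in 170 regions from 2 to 3, and 0.731 in 34 regions of 3 or more. The day 0 reads enter the ratio, the rule and the listing, so nothing is read from the ratios by class of reads. In the 104 regions with a day 0 mean under 250 normalised reads the median ratio was 0.670, and in the 425 regions from 250 to 300 it was 0.775. Above that it lay between 0.728 and 0.742. Single windows had a median ratio of 0.762, and the 34 regions longer than 2000 bp had a median of 0.704.

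The 5 regions of highest enrichment had ratios of 0.616 to 0.708, all below the median of 0.735. The highest was on chromosome 12 from 3069801 to 3071100, with an enrichment of 5.78. It held 259 and 278 normalised reads at day 5, against 376 and 448 at day 0, a ratio of 0.652. Chromosome 12 from 4735301 to 4736600 followed with an enrichment of 4.47, and held 290 and 267 at day 5 and 351 and 434 at day 0. On chromosome 9 from 9319601 to 9320800 the enrichment was 4.29 and the ratio 0.616. That region averaged 154 ± 14.5 normalised reads at day 5 and 250 ± 14.2 at day 0 (SD, n = 2 each). Chromosome 1 from 8109001 to 8110100 and chromosome 7 from 2602401 to 2603400 had enrichments of 4.10 and 3.91 with ratios of 0.6997 and 0.7047. The day 0 libraries were further apart than the day 5 libraries in 4 of the 5 regions. Without day 0 replicate 2 the log2 change on chromosome 1 was -0.31, against -0.52 with both.

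Being listed at day 5 only did not mean being far from a day 7 region. The median distance to the nearest one was 7.1 kb, and 492 of the 1213 regions (40.6%) had one within 5 kb, of which 150 were closer than 1 kb. A day 7 region touched 18 of them with no base between. Regions gained at day 5 only had a day 7 region within 5 kb in 31.9% of cases, with a median distance of 9.3 kb. The nearest day 7 region within 5 kb was itself lower than day 0 for 319 of the 492 lost regions (64.8%). Of all listed day 7 regions, 51.3% were lower than day 0. Beyond 5 kb the nearest day 7 region was lower for 59.1%, from 20 to 50 kb for 55.2% and from 50 kb for 55.3%. For regions gained at day 5 only, the nearest day 7 region within 5 kb was lower in 35.6%. Both tables share the day 0 libraries, so a low or high day 0 level in a stretch of chromosome enters both days. This was not tested.

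**Figure D4:**
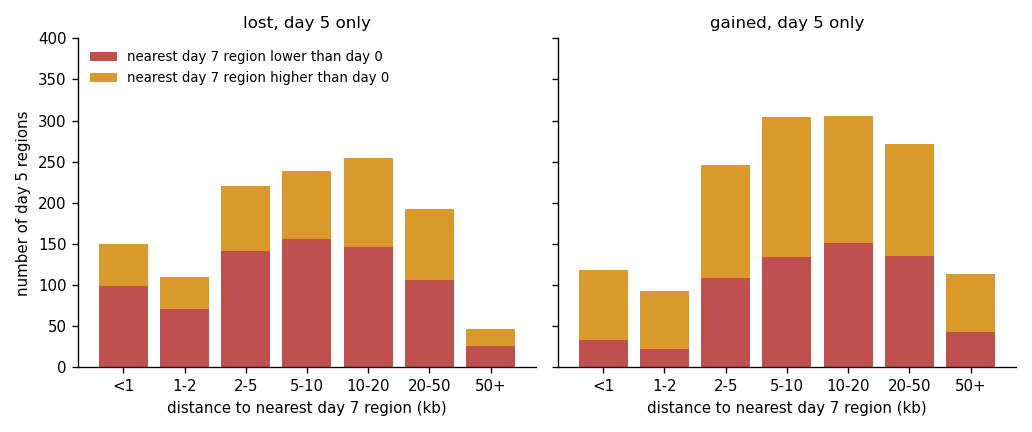
Number of day 5-only regions (vertical) by distance to the nearest listed day 7 region in kb (horizontal), for lost (left) and gained (right) regions, coloured by whether that day 7 region was lower (red) or higher (yellow) than day 0. Under 1 kb, 99 of 150 lost regions and 33 of 118 gained regions had a lower day 7 neighbour.

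For the 319 lost regions with a lower neighbour within 5 kb, the median deposited log2 change of that neighbour was -0.40. For the 173 with a higher neighbour it was 0.33. A day 7 region nearest to several lost regions is counted once for each. The day 7 neighbour was lower for 13 of the 18 touching lost regions (72.2%). For touching regions gained at day 5 only it was lower for 6 of 14 (42.9%). Of the 18 touching lost regions, the 5 of lowest ratio with a deposited call are given here. Among these 5, 4 lay beside a day 7 region that was also lower. On chromosome 15 the day 5 region from 15081001 to 15082600 held 271 and 279 normalised reads at day 5, against 386 and 427 at day 0. The day 7 region from 15082601 to 15083600 began at the next base and had a log2 change of -0.69 in the authors' deposited table. On chromosome 5 the region from 5322601 to 5323600 held 197 and 195 at day 5 and 323 and 254 at day 0, and on chromosome 10 that from 8773501 to 8774500 held 217 and 194 at day 5 and 288 and 297 at day 0. For their day 7 neighbours the authors' deposited table gives log2 changes of -0.32 and -0.38. On chromosome 8 the region from 8503501 to 8504500 held 231 and 153 at day 5 and 283 and 266 at day 0, beside a day 7 region with -0.35 in the authors' deposited table. The exception was chromosome 1 from 50327401 to 50328400, at 198 and 149 at day 5 and 263 and 242 at day 0. Its day 7 neighbour was higher than day 0, by 0.32 on the log2 scale in the authors' deposited table. Without day 5 replicate 2 its own day 5 log2 change was -0.35, against -0.54 with both.

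Other lost regions stood alone. The most distant was on chromosome 4 from 14415601 to 14416600, at 207 kb from the nearest day 7 region. It held 191 and 145 normalised reads at day 5, against 234 and 253 at day 0, a ratio of 0.691. Its log2 change was -0.35 without day 5 replicate 2 and -0.53 with both. Chromosome 13 from 10208701 to 10209700 was also 207 kb away, and held 191 and 207 at day 5 and 279 and 286 at day 0. The replicates of both days were close in this region. Chromosome 7 from 5088401 to 5090300, at 144 kb, averaged 335 ± 2.30 normalised reads at day 5 and 486 ± 41.6 at day 0 (SD, n = 2 each), with close replicates at day 5 and wider ones at day 0. Shallower losses were seen on chromosome 15 from 8887601 to 8888800 (129 kb, ratio 0.824) and on chromosome 3 from 2482601 to 2483800 (117 kb, ratio 0.774).

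The median distance from such a region to the next was 71.9 kb, and 104 of them (8.57%) had another within 5 kb. With gaps under 5 kb, 1115 regions were single and 49 pairs were formed, with no longer run. The pair of lowest ratios lay on chromosome 6. Its region from 4646801 to 4648500 held 218 and 243 normalised reads at day 5, against 400 and 361 at day 0. Its region from 4649001 to 4650500 held 249 and 175 at day 5 and 366 and 379 at day 0. The day 5 libraries were further apart in the second region than in the first. On chromosome 1 the region from 44698801 to 44700000, at 193 and 183 at day 5 and 281 and 258 at day 0, paired with the region from 44696701 described above. On chromosome 16 the regions from 4727501 to 4728500 and from 4729101 to 4730200 had ratios of 0.670 and 0.606. Without day 0 replicate 2 their log2 changes were -0.36 and -0.43, against -0.58 and -0.72 with both. A day 7 region ended 200 bp before the first of them, with a log2 change of -0.67 in the authors' deposited table.

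For 444 of the 1213 regions (36.6%) some other listed day 5 region lay within 5 kb, and in 334 of these cases (75.2%) it was also lower at day 5. In 212 of the 444 cases (47.7%) it was lower and overlapped a day 7 region. Regions gained at day 5 only had a day 5 neighbour within 5 kb in 30.8% of cases, which was lower at day 5 in 32.7% of them. Of all listed day 5 regions, 52.9% were lower than day 0. Neighbouring regions share libraries and are no replicates of each other.

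In 775 of the 1213 regions (63.9%) day 5 replicate 1 lay above day 5 replicate 2, against 59.1% of the overlapping lost regions, 37.0% of those gained at day 5 only and 49.1% of all listed regions. The median ratio of day 5 replicate 1 over replicate 2 was 1.04 in the 1213 regions. In 577 (47.6%) day 0 replicate 1 lay above day 0 replicate 2. The median ratio was 0.758 with day 5 replicate 1 as the only day 5 library and 0.734 with day 5 replicate 2. The widest gap between day 5 libraries was in the region of chromosome 9 from 5905401 to 5906600, which held 292 and 146 normalised reads at day 5 and 322 and 328 at day 0. Chromosome 10 from 9316101 to 9317100 held 256 and 134 at day 5 and 292 and 276 at day 0. Chromosome 2 from 6283101 to 6284100 held 202 and 108 at day 5 and 253 and 236 at day 0. In all 3 regions replicate 1 was only slightly below day 0 and replicate 2 far below, so the size of the loss rests on replicate 2. Without it, their log2 changes were -0.15, -0.15 and -0.27, against -0.57, -0.54 and -0.66 with both. Of the regions touching a day 7 region, that on chromosome 8 from 8503501 to 8504500 also rested on it, at -0.25 without day 5 replicate 2 and -0.52 with both.

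A small set of regions held far more reads than the others. On chromosome 5 the region from 10716501 to 10719400 held 13743 and 12997 normalised reads at day 5, against 21148 and 16243 at day 0. Chromosome 8 from 19137901 to 19139800 held 10293 and 9667 at day 5 and 14760 and 11658 at day 0. Chromosome 5 from 10798101 to 10800000 held 7134 and 6371 at day 5 and 11941 and 8642 at day 0. In these 3 regions, and in another on chromosome 5 from 10708301 to 10710100 (1339 and 1332 at day 5, 2108 and 1384 at day 0), day 0 replicate 1 exceeded replicate 2 by 1.27-fold to 1.52-fold. The next highest region averaged 1379 normalised reads at day 0. The enrichment of the 4 was ordinary, from 1.36 to 1.82, and their input was higher at day 5 than at day 0 by 0.88 to 1.30 on the log2 scale, relative to the median listed region. The nearest day 7 region was higher than day 0 for each of the 4. Without day 0 replicate 1 the log2 change was -0.05 in the region from 10708301 (-0.39 with both libraries) and -0.36 in that from 10798101 (-0.61 with both). The part of the input in these losses was not tested.

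All 19 chromosomes held such regions, from 24 on chromosome 19 to 131 on chromosome 1, and 2 lay on scaffold 20. As a share of listed day 5 regions they ran from 7.83% on chromosome 11 to 14.9% on chromosome 15. Per Mb up to the last listed region, chromosome 8 had the most at 5.43 and chromosome 19 the fewest at 1.51. These were 13.7% of 760 listed day 5 regions on chromosome 8 and 9.38% of 256 on chromosome 19. The median ratio varied little, from 0.712 on chromosome 4 to 0.751 on chromosome 14. On scaffold 20, the region from 593401 to 595300 held 805 and 797 normalised reads at day 5, against 1163 and 996 at day 0.

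The input behaved differently on chromosome 14. The deposited enrichments imply the input reads of both groups, and their log2 difference, day 5 over day 0, is given relative to the median listed region. In the 1213 lost regions its median was 0.07 (interquartile range -0.19 to 0.32). The difference was above that of the median listed region in 684 of them (56.4%). This share was 58.3% in the overlapping lost regions and 32.6% in regions gained at day 5 only. On chromosome 14 the median difference over its 73 lost regions of day 5 only was -0.37. On the other 18 chromosomes the medians ran from -0.05 to 0.21. The second highest value, 1.16, belonged to chromosome 10 from 9219601 to 9220700, with 198 and 173 normalised H3K9ac reads at day 5 and 297 and 266 at day 0, beside the regions of chromosome 5 from 10708301 (1.30) and from 10798101 (1.05). The 3 lowest values, from -1.99 to -1.43, were all on chromosome 14, in regions from 4006901 to 4007900, from 11160401 to 11161400 and from 1655501 to 1656500. The first of them held 157 and 180 normalised H3K9ac reads at day 5, against 221 and 301 at day 0, and its log2 change was -0.39 without day 0 replicate 2 and -0.63 with both. The second held 229 and 229 at day 5 and 272 and 378 at day 0, and its log2 change was -0.25 without day 0 replicate 2, against -0.50 with both. The third held 211 and 209 at day 5 and 252 and 262 at day 0.

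Per the file headers, the day 0 input is the background of both the day 5 and the day 7 libraries. The shift on chromosome 14 was in this background in the day 5 table. Over the listed regions of that chromosome the implied day 0 background had a median of 252.7 reads per kb in the day 5 table, against 152.5 to 167 on the other 18 chromosomes. In the day 7 table it was 158 on chromosome 14. In 563 regions of identical coordinates elsewhere, the day 5 table gave 1.02 to 1.07 times the day 0 background of the day 7 table. In 30 such regions on chromosome 14 it gave 0.635 to 2.57 times. Enrichments of the 73 lost regions on chromosome 14 are therefore not on the scale of the others, and without them the median enrichment of the remaining 1140 was 1.45. Their H3K9ac reads do not use this background, and the median ratio without them was 0.733.

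**Figure D5:**
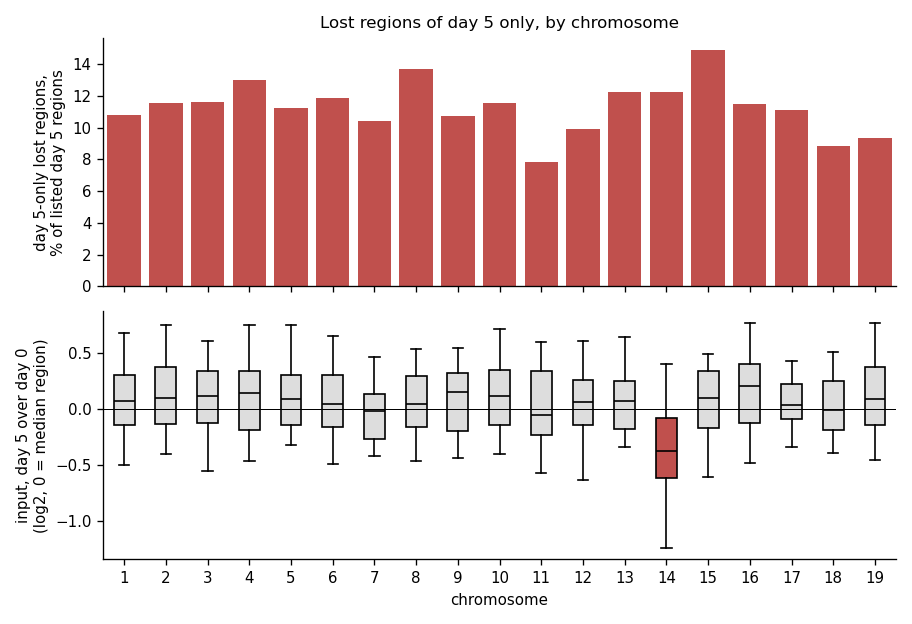
Top, lost regions of day 5 only as a percentage of all listed day 5 regions on each of 19 chromosomes. Bottom, log2 change of the implied input, day 5 over day 0, in the same lost regions, with 0 at the median listed region, boxes at the quartiles and whiskers at the 5th to 95th percentile. Chromosome 14 (red) has a median of -0.37 and the others lie between -0.05 and 0.21.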

How the data were processed

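H3K9ac ChIP-seq of differentiating xylem was described from 2 tables made by the authors, of day 5 and of day 7 against day 0. Per the submitters' processing notes reads were aligned with Bowtie. Per the file headers, regions were listed by diffReps 1.55.4 with a negative binomial test, windows of 1000 bp moved by 100 bp and a window p cutoff of 0.0001. The build is given only as a chromosome length file named pop3. The deposited cells hold normalised reads of 2 libraries and a deposited mean signal of each group. The deposited enrichment is a ratio over background libraries, and per the file headers the day 0 inputs stand behind the day 5 libraries and the day 5 inputs behind the day 0 libraries. The authors' log2 change and p-value, with Benjamini-Hochberg adjustment over 59188 tests at day 5 and 57991 at day 7, were used as deposited.

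Reads were recovered by multiplying with the library constant (100% whole within 0.1 of a read). Chromosomes, named differently in the tables, were matched by number. Enrichment was recomputed as the geometric mean of both deposited values, and implied input from signal over enrichment. limma 3.58.1 in R 4.3.3 was fitted to log2 normalised reads of all 10605 regions with a mean trend, not to counts as first planned, and was tested on simulated data. Python 3.11.15, pandas 2.3.3, numpy 2.4.6 and matplotlib 3.10.9 did the rest.

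The members and the lists were chosen with earlier results of these data known. Regions are named by rule, among those with a deposited adjusted p under 0.05: the 8 of lowest ratio, the 5 of highest enrichment, the 5 farthest from and the 5 nearest to a day 7 region, 3 runs, the 3 whose day 5 libraries differ most, and the 3 highest and 3 lowest input changes. The 4 regions of most reads and those on scaffold 20 were named after their values were seen. Replicates may be technical, and reads without molecular identifiers are not independent molecules, so depth covers counting error only. Other scalings, thresholds and left-out libraries were tried.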

Additional observations from a re-analysis of the deposited data

How the results depend on the processing

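A stricter ratio limit of 0.75 left 691 of the 1213 regions. The median ratio of 0.735 was 0.709 on unscaled reads and 0.684 with scaling by the right-trimmed mean per bin, a scaling chosen after seeing the data that shifted the median log2 change of all listed regions to -0.19, against -0.09 as deposited. With 1 library left out it ranged over 0.734 to 0.758. The limma count of 1209 ranged over 794 to 1204 with 1 library left out, the lone library being assumed to vary like the other group, and was 0 on unscaled reads (4 of all 10605 regions), an alternative chosen after seeing the data. The causes were not tested. Within 1 kb, 162 regions had a day 7 region and 38 had another lost region of day 5 only, and 161 had such a region within 10 kb. With the replicate block limma called 1209. The labels do not say whether same-numbered libraries were paired. Deviations of same-numbered day 5 and day 0 libraries correlated at 0.108 over the listed regions, and 2 pairs cannot decide it. Over all settings the log2 changes of the 37 named regions ranged from -1.18 to -0.05, and with a library left out their sign is fixed by the rule. The lowest number of reads in any of the 1213 regions was 85 in day 5 replicate 2 and 230 in day 0 replicate 2, which limits the precision there.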

Other observations

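The deposited tables share both day 0 libraries, and 593 regions have identical coordinates in both. In these regions the normalised day 0 reads of replicate 1 differed between the tables by a constant factor of 1.09. The implied day 0 input did not on chromosome 14, where 30 such regions had a median ratio of 1.66 between the day 5 and the day 7 table, against 1.05 in 563 regions elsewhere.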
